A study of Mus musculus with 8 samples.

Results

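Natural microchimerism, the presence of maternal cells in offspring without any transplantation, was examined in 2 of the 8 pooled RNA libraries of this series. One library held trafficked maternal cells and the other held recipient cells, both harvested from whole bodies of uninjected pups aged 1 week. Dams were C57BL/6 (CD11c-DTR) and sires BALB/c, so maternal cells carry the dam's genotype and recipient cells are F1. CD11c-DTR places the diphtheria toxin receptor under the promoter of Itgax, which encodes CD11c, and diphtheria toxin (DT) then removes CD11c+ cells of the dam for a short time. No pup received in utero transplantation (IUT). The other 6 libraries are the maternal and recipient cells of pups given marrow cells of a maternal-strain donor (mIUT), a paternal-strain donor (pIUT) or a paternal-strain donor after DT to the dam (DC-depleted pIUT). The study took uninjected controls from dams given DT and from dams given saline. Whether dams of this pool were given DT, and in what proportion, is not stated in the sources used here. Mononuclear cells were sorted magnetically and by flow cytometry with antibodies to H2K-b for maternal cells and to H2K-d for recipient cells. F1 cells carry both haplotypes, so the maternal gate rests on the absence of H2K-d. Pups were pooled and each origin is 1 library without a replicate, so every difference below is between 2 libraries, and cell origin and library cannot be told apart. The members were the 14028 genes with at least 10 counts in either library, of 52784 genes in the table, and the 4429 maternal and 148 recipient clonotypes of the receptor tables, of 14428 over all 8 libraries.

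Maternal cells cross the placenta during gestation and enter offspring with milk, and small numbers persist in blood, marrow and lymphoid organs. Cells that cross can be mature lymphocytes, myeloid cells or progenitors. Lymphocytes carry a record of when they were made. V, D and J segments are joined by the Rag1 and Rag2 recombinase, and terminal transferase, encoded by Dntt, adds untemplated bases at the joins. In mice this enzyme is largely absent from fetal lymphopoiesis and active after birth, so receptors of adult mice have longer joins than those of newborn mice.

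The maternal library held 38558603 counts and the recipient library 47965130. The recipient library was the less complete of the pair: 9125 genes reached 10 counts in it and 13068 in the maternal library. Of the genes tested, 31.9% had 3 counts or fewer in the recipient library and 5.77% in the maternal library. A count of 0 in either library is therefore weak evidence on any single gene, and more often so in the recipient library. Among abundant genes such gaps were found on both sides: 21 of 1680 genes with at least 100 CPM (the count scaled by the normalized library size) in the maternal library had 3 counts or fewer in the recipient library, and 29 of 1962 the other way. Among the 522 genes with at least 100 CPM in each of the 6 IUT libraries, 0 had 3 counts or fewer in either uninjected library. Gapdh, a glycolytic enzyme, had 59683 maternal and 74425 recipient counts, or 1534 and 1539 CPM. The median log2 ratio of the 9 broadly expressed genes was 0.04, and it turned to -0.00033 under DESeq2 size factors.

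Genotype markers went partly against the label of the recipient library, and against those of the maternal mIUT and DC-depleted pIUT libraries. H2-Ea (chromosome 17, 34560926 to 34563618, GRCm39) encodes the alpha chain of the class II molecule I-E. Its C57BL/6 allele is not transcribed and its BALB/c allele is. It had 0 counts in the maternal library, which allows up to 3.69 by the exact Poisson 95% interval. It had 27 counts in the recipient library (17.8 to 39.3). H2-Eb1, its beta-chain partner, which both strains transcribe, had 119780 and 18072 counts. H2-Ea thus stood at 0.149% of H2-Eb1 in the recipient library (exact interval 0.0984 to 0.217%). In the other 3 recipient libraries the same percentage was 30.3, 48.0 and 40.1%. In the maternal mIUT, pIUT and DC-depleted pIUT libraries it was 62.4, 0 and 50.7%, although the C57BL/6 allele is not transcribed. The class II RNA of the library labelled recipient therefore held little of the transcript that F1 cells make from the BALB/c allele. Values below are given for the library labelled recipient, called the recipient library for short. The maternal IUT libraries are likewise named by their labels.

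Among sex-linked genes, Uty separated the pair and Xist differed 4.25-fold, while the other Y-linked genes had few or no counts in both. Uty, Eif2s3y, Ddx3y and Kdm5d, which lie on the Y chromosome, all had 0 counts in the maternal library. In the recipient library Uty had 3122 counts and Eif2s3y 6, while Ddx3y and Kdm5d had 0. Xist, the RNA that silences an X chromosome in female cells, had 2036 maternal and 596 recipient counts, or 52.3 and 12.3 CPM. In the other 3 recipient libraries all 4 Y-linked genes had counts. The 3 maternal IUT libraries also had counts of Y-linked genes, with Uty at 1584, 320 and 39 and Eif2s3y at 2988, 753 and 662. Dams are female, so these counts go against the maternal label of those libraries, and their source was not tested. With pooled RNA, fewer cells of a type and less RNA per cell cannot be told apart.

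B- and T-cell receptors were far more numerous in the maternal library. A clonotype is here a line of the deposited table, which gives a V segment, a J segment, the CDR3 between them (the stretch that contacts antigen) and the number of reads. The maternal library had 4429 clonotypes in 348684 reads, and the recipient library 148 in 66848 reads. Drawn down to 66848 reads, the maternal table would still hold 3610 clonotypes. The Hill number of order 1, the effective number of equally large clonotypes, was 941 against 63.8. The recipient table was made of few large clonotypes: its median clonotype had 306.5 reads against 26 in the maternal table. The 10 largest held 40.0% of recipient reads and 12% of maternal reads, and 17 recipient clonotypes held 50% of the reads, against 135 maternal clonotypes. Reads carry no molecular identifiers, so they are not independent molecules, and the intervals given here cover counting error only.

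B-cell chains made up most of both tables. B-cell receptor chains (IGH, IGK and IGL) were 80.9% of maternal clonotypes (Wilson 95% interval 79.7 to 82.1%) and 75% of recipient clonotypes (67.5 to 81.3%). Heavy chains (IGH) were 2122 maternal clonotypes, 47.9% of the table, and 54 recipient clonotypes, 36.5% (29.2 to 44.5%). IGK light chains were 30.7% and 31.8%. IGL light chains were 2.35% and 6.76%, with 10 recipient clonotypes. TRB, the beta chain of alpha-beta T cells, was 12.1% (534 clonotypes) and 14.9% (22 clonotypes), and TRA was 6.50% (288) and 8.11% (12). Gamma-delta chains were rare, with 8 TRD and 15 TRG clonotypes in the maternal table and 2 and 1 in the recipient table. By reads, B-cell chains took 93.3% of the maternal and 85.0% of the recipient table.

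**Figure D1:**
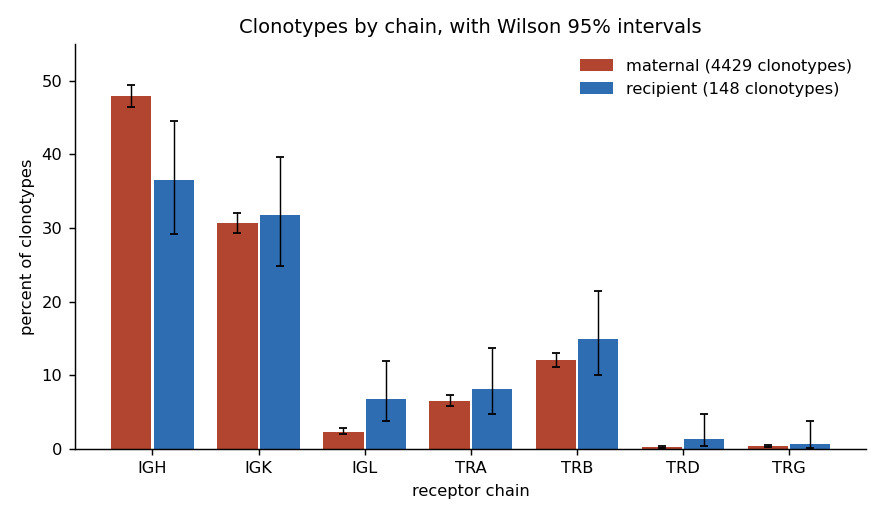
Share of clonotypes of each receptor chain (percent of all clonotypes of the library) in the maternal and recipient uninjected libraries; error bars are Wilson 95% intervals. Heavy chains were 47.9% of maternal and 36.5% of recipient clonotypes, and the intervals also do not overlap for IGL and TRD, of which the recipient library had 10 and 2 clonotypes.

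The largest clonotypes of both libraries were light chains without any base between V and J. They are shown with the reads because the same CDR3 leads both tables; capitals would mark bases that neither V nor J encodes, and here there are none. The CDR3 of IGKV1-117/IGKJ2 had 8235 reads in the maternal library, 2.36% of the table, and 7017 in the recipient library, 10.5%. Segment IGKV1-117 lies on chromosome 6, 68098030 to 68098811, and IGKJ2 at 70699900 to 70699942 (GRCm39). IGKV6-15/IGKJ2 was second in the maternal library with 5539 reads and had 2031 in the recipient library. IGLV2/IGLJ2 followed with 5167 maternal and 815 recipient reads. In the recipient library IGKV6-15/IGKJ1 and IGKV6-15/IGKJ5 came next, with 3208 and 2739 reads, and their largest maternal lines had 283 and 2838.
IGKV1-117/IGKJ2: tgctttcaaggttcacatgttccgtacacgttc
IGKV6-15/IGKJ2: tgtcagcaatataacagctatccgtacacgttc
IGKV6-15/IGKJ1: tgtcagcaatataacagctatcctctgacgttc
IGKV6-15/IGKJ5: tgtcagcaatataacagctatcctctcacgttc
IGLV2/IGLJ2: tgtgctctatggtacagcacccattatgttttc

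Heavy-chain joins of both uninjected libraries were long, and those of the 6 IUT libraries were short. The median number of bases between V, D and J was 6 in 1878 maternal IGH clonotypes with a D segment (quartiles 4 and 8) and 6 in 49 recipient clonotypes (4 and 12). In the maternal library 82 of 1878, or 4.37%, had 0 such bases (Wilson interval 3.53 to 5.39%). In the recipient library 2 of 49, or 4.08%, had 0 (1.13 to 13.7%). In the other 6 libraries, all from pups of the same age, the median was 0 bases, and the share with 0 ran from 58.3% of 12 clonotypes to 85.7% of 7. The recipient IUT libraries alone gave 62.7, 70.6 and 74.2%. So heavy-chain clonotypes labelled recipient differed from those of the other recipient libraries and lay close to the maternal uninjected ones. Without the clonotypes that both libraries share, the recipient median was 7 bases in 46 clonotypes.

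CDR3 length and V-segment mismatches were compared as well. The median productive IGH CDR3 was 42 bases in both uninjected libraries, against 33 to 39 bases in the other 6. The interval of the recipient median, 39 to 42 bases, meets those of recipient mIUT (36 to 39) and of the maternal mIUT (30 to 39), pIUT (21 to 39) and DC-depleted pIUT (30 to 42) libraries, and not those of recipient pIUT and DC-depleted pIUT (both 33 to 36). Mismatches to the germline V segment were counted in productive IGHM and IGHD clonotypes with at least 200 V bases covered. Whether a mismatch is an allele that differs from the reference or a mutation was not tested. At least 4 mismatches were found in 82 of 918 maternal clonotypes (8.93%, Wilson interval 7.25 to 11%) and in 2 of 26 recipient clonotypes (7.69%, 2.14 to 24.1%). They were found in 7 of 19 (36.8%, 19.1 to 59.0%) and in 13 of 24 (54.2%, 35.1 to 72.1%) in the recipient pIUT and DC-depleted pIUT libraries, and in 0 of 2 in recipient mIUT. The maternal IUT libraries had 1 of 6, 1 of 4 and 2 of 3. For IGH, the recipient uninjected interval overlaps that of recipient pIUT but not that of recipient DC-depleted pIUT. In productive TRA clonotypes of the same coverage, 19 of 150 maternal and 0 of 6 recipient uninjected clonotypes had at least 4. Recipient mIUT, pIUT and DC-depleted pIUT had 3 of 5, 18 of 53 and 5 of 19. IGK had 54 of 843 and 2 of 33 in the uninjected pair, and 0 of 19, 2 of 115 and 4 of 110 in those libraries. TRB had 2 of 293 and 1 of 10, and 0 of 27, 9 of 749 and 0 of 96. The mismatch comparison was added after values were seen.

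**Figure D2:**
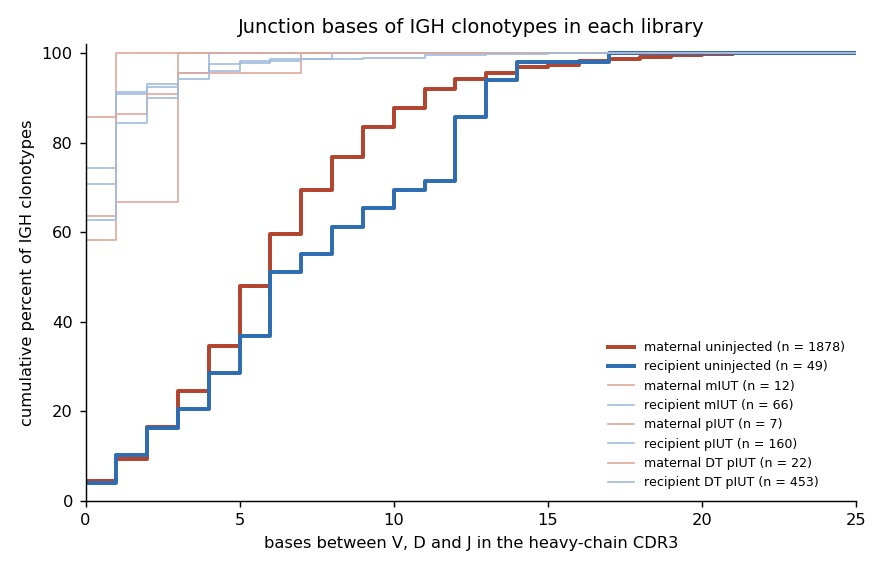
Cumulative percent of IGH clonotypes (y axis) with up to a given number of bases between V, D and J (x axis, bases) in each of the 8 libraries; thick lines are the uninjected pair and thin lines the 6 IUT libraries. Both thick lines start near 4% and reach 50% at 6 bases, whereas every thin line starts above 58%.

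Joins of IGK, TRA and TRB were shorter in both libraries. IGK had 0 bases between V and J in 84.0% of 1358 maternal and 91.5% of 47 recipient clonotypes. TRA had a median of 2 bases in both, with 0 bases in 23.3% of 288 maternal clonotypes and in 4 of 12 recipient clonotypes. TRB had medians of 3 in 409 maternal and 2 in 13 recipient clonotypes with a D segment, and 0 bases in 13.7% (10.7 to 17.4%) and in 4 of 13 (12.7 to 57.6%). The TRB intervals overlap only in part, and 13 clonotypes leave the recipient value wide. The other 3 recipient libraries had 48.8 to 77.1% of TRB clonotypes at 0, and the lowest of these lies within the recipient uninjected interval. The maternal IUT libraries had 2 of 8, 0 of 8 and 54.7%, so TRB joins did not set the uninjected pair apart as IGH joins did.

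The largest IGH, TRB and TRA clonotypes of each library are printed here, with bases that neither V, D nor J encodes in capitals, since these bases distinguish them from the light chains above. In the maternal library the largest IGH clonotype was IGHV1-52/IGHJ1 with segment IGHD2-4 and constant gene IGHM (1033 reads), the largest TRB was TRBV12-2/TRBJ1-6 (355 reads) and the largest TRA was TRAV3-1/TRAJ23 (85 reads). In the recipient library the largest IGH clonotype was IGHV1-52/IGHJ3 (1043 reads), also IGHM, the largest TRB was TRBV17/TRBJ2-7 (1549 reads) and the largest TRA was TRAV3N-3/TRAJ16 (451 reads). IGHV1-52 lies on chromosome 12, 115109107 to 115109539 on the minus strand, and TRBV17 on chromosome 6, 41139996 to 41140490 on the plus strand.
IGHV1-52/IGHJ1: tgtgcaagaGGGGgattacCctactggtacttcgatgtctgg
IGHV1-52/IGHJ3: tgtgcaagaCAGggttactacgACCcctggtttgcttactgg
TRBV12-2/TRBJ1-6: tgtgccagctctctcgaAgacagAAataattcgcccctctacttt
TRBV17/TRBJ2-7: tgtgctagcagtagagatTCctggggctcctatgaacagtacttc
TRAV3-1/TRAJ23: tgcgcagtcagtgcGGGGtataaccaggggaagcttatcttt
TRAV3N-3/TRAJ16: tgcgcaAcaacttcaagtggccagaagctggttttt

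Constant genes were mostly IGHM and IGHD in both tables. IGHM, which encodes the first isotype a B cell makes, was assigned to 1658 of 2122 maternal IGH clonotypes (78.1%) and to 39 of 54 recipient ones (72.2%, 59.1 to 82.4%). IGHD, made with IgM by mature naive cells, was 18% and 18.5%. Switched isotypes were few. The maternal table had 9 IGHA, 3 IGHG2B and 1 IGHG2C clonotypes, and the recipient table had 2 IGHG2B. A recipient share of 0 of 54, as for IGHA, is below 6.64% by the Wilson interval, so the absence of IGHA is within what the maternal share of 0.424% allows. IGHG2B was 0.141% (0.0481 to 0.415%) of maternal and 3.70% (1.02 to 12.5%) of recipient IGH clonotypes, and these intervals do not overlap.

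The largest heavy-chain V families had similar shares, while IGHV7 and some J segments differed. Apart from IGHV7, IGKV1 and TRAV7, the intervals of all IGHV, IGKV and TRAV families overlapped, as did those of IGHJ1 and IGHJ3. IGHV1, the largest heavy-chain family, was 60.7% of maternal and 57.4% of recipient IGH clonotypes, and IGHV5 10.1% and 11.1%. IGHV7 was 2.07% (44 clonotypes) and 13% (7 clonotypes, 6.42 to 24.4%). Of the 7 recipient lines, 2 of IGHV7-3 held 1007 of the 1014 reads, so the share rests largely on lines of few reads. IGHJ2 was 33.4% (31.4 to 35.4%) of maternal and 55.6% (42.4 to 68.0%) of recipient clonotypes, and IGHJ4 27.0% (25.1 to 28.9%) and 11.1% (5.19 to 22.2%). IGKJ2 was 26.4% (24.1 to 28.8%) and 46.8% (33.3 to 60.8%) of IGK clonotypes. IGKV1 was 8.91% (7.51 to 10.5%) and 21.3% (12 to 34.9%) of IGK clonotypes, and TRAV7 9.03% (6.24 to 12.9%) and 41.7% (19.3 to 68%) of TRA clonotypes, of which the recipient library had 12. Several recipient lines repeat a CDR3, so the 54 IGH lines hold 39 distinct CDR3 sequences and the intervals are narrower than they should be.

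A large part of the recipient table was also in the maternal table. By chain and exact CDR3 bases, 43 sequences were in both, which is 36.4% of the 118 distinct recipient sequences and 1.18% of the 3659 distinct maternal ones. These 43 held 64.0% of recipient reads and 15.8% of maternal reads. Light chains made up most of them, with 33 of 40 distinct recipient IGK sequences and 6 of 7 IGL sequences shared, against 2 of 39 IGH, 1 of 10 TRA, 1 of 2 TRD, 0 of 19 TRB and 0 of 1 TRG. Of the 42 with a junction that could be read, 37 had 0 bases between V and J, and 34 of the 43 were also in at least 1 of the other 6 tables. The recipient table shared 39 sequences (33.1%) with the far larger recipient pIUT table of 5272 sequences, and 34 and 19 with the recipient DC-depleted pIUT and mIUT tables. Reads of a sequence in the pair did not keep a single ratio: IGKV6-15/IGKJ1 had 283 maternal and 3208 recipient reads, and IGLV1/IGLJ1 had 3962 and 372.

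Of the shared sequences, 9 were in no other table, and 3 of these were not light chains. They are shown because each has bases added at the join. IGHV1-52/IGHJ1, printed above as the largest maternal heavy chain, had 5 such bases and 982 reads in the recipient library. IGHV12-3/IGHJ1 had 6, with 49 maternal and 847 recipient reads in its largest lines; a heavy chain of IGHV12-3 paired with a light chain of IGKV4-91 is known from B-1 cells that bind phosphatidylcholine. A CDR3 of IGKV4-91/IGKJ4 was shared as well, with 1406 and 2626 reads, and was also in 3 other tables. TRAV14N-3/TRAJ5 is out of frame, had 5 added bases, and had 51 and 179 reads. A TRDV4/TRDJ2 sequence had 121 maternal and 400 recipient reads and was in 4 other tables. No D segment was assigned to it, so added bases could not be read and none are marked. A canonical join of TRDV4 and TRDJ2 is known from gamma-delta T cells of the fetal thymus. How these sequences came to be in both tables was not tested.
IGHV12-3/IGHJ1: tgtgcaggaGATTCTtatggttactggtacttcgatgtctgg
TRAV14N-3/TRAJ5: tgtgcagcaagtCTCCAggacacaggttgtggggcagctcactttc
IGKV4-91/IGKJ4: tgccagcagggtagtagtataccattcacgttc
TRDV4/TRDJ2: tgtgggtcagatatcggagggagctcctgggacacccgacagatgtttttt

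**Figure D3:**
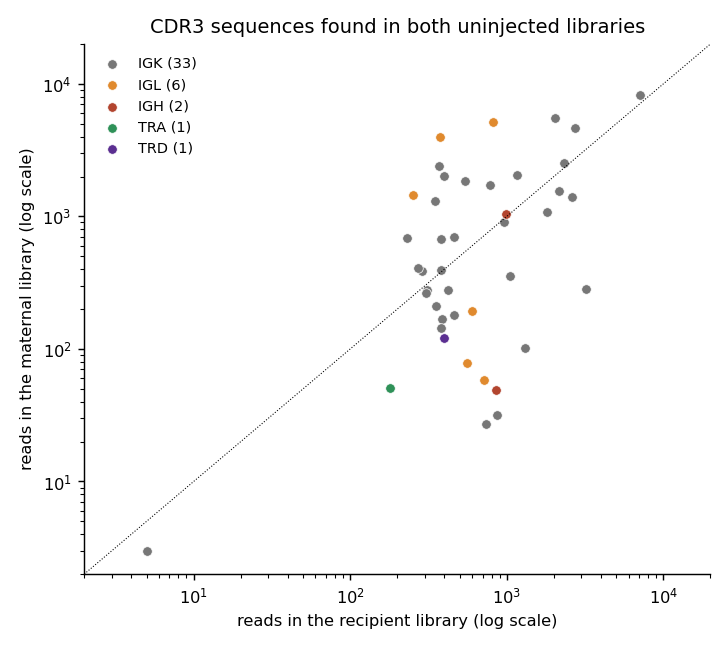
Reads of each of the 43 CDR3 sequences found in both uninjected libraries, in the recipient library (x axis, log scale) and in the maternal library (y axis, log scale); the dotted line marks equal reads and colours give the chain. The points spread to both sides of the line, from 27 maternal and 732 recipient reads to 3962 and 372.

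Genes were compared as the ratio of CPM, with counts of 3 or fewer set to 3, and a gene was called where the ratio reached 8-fold. No p value is given, since there is 1 library a side. At this size 4958 genes were higher in the maternal library, 35.3% of those tested, and 1350 were higher in the recipient library, 9.62%. The median log2 ratio over all genes tested was 0.79. Genes near 0 in the recipient library account for much of the maternal excess: among the 8165 genes that reached 10 counts in each of the pair, 572 were higher in the maternal and 640 in the recipient library. Counts of list members below are to be read against 35.3% and 9.62%, and a share near these is no result about a list. List medians have members at 3 counts or fewer at that floor.

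**Figure D4:**
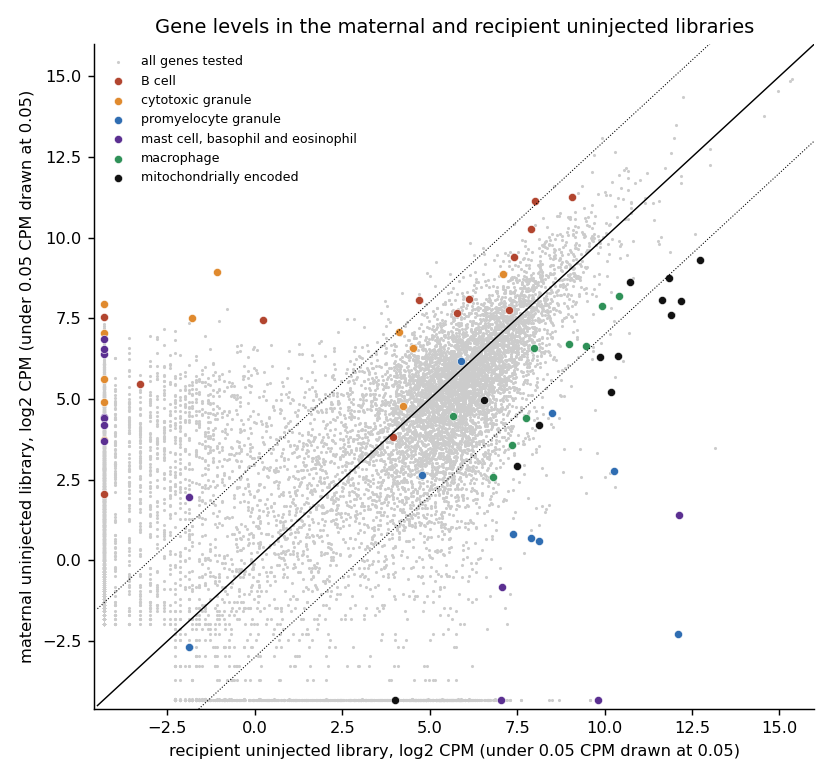
Level of each gene tested in the recipient library (x axis, log2 CPM) and the maternal library (y axis, log2 CPM), with levels under 0.05 CPM drawn at 0.05; the solid line marks equality, dotted lines 8-fold, and colours 6 gene lists. All 11 cytotoxic granule genes lie above the line of equality, 8 of 9 promyelocyte granule genes below it, and many genes stand at the left edge, at or near 0 in the recipient library.

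B-cell genes were higher in the maternal library, mostly by less than 8-fold. All 13 members of the list were tested, 12 were higher in the maternal library, 6 were called and the median log2 ratio was 2.38. Cd79a and Cd79b, the signalling chains of the B-cell receptor, had 96352 and 87145 maternal counts and 26045 and 12407 recipient counts, which is 4.60-fold and 8.73-fold. Ms4a1, which encodes CD20, had 47865 and 11432 counts (5.20-fold). These levels show abundant B-cell RNA in both libraries. Among the 6 called members, Blk, a kinase of the receptor, had 7247 and 0 counts (at least 3002-fold), Spib, a transcription factor, 6822 and 57 (149-fold) and Ebf1, a factor of B-cell commitment, 1726 and 5 (429-fold). Cr2, the complement receptor of mature B cells, had 553 and 745 counts, and 0 in each of the 6 IUT libraries. The summed level of the list was 8006 CPM in the maternal and 1523 CPM in the recipient library, against 43.4 to 362 CPM in the IUT libraries.

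Immunoglobulin constant genes were higher in the maternal library. All 10 tested members were higher in the maternal library and 5 were called, with a median log2 ratio of 3.02. Ighm had 252174 maternal and 60437 recipient counts (5.19-fold), Igkc 236139 and 39996 (7.34-fold) and Ighd 40154 and 16365 (3.05-fold). Switched genes were low: Igha had 1202 and 0 counts, Ighg3 214 and 0, and Ighg2b 721 and 772. Ighg1 and Ighe had 0 in both. Genes of antibody-secreting cells split, with 5 of 9 tested called in the maternal library. Jchain, which links IgA and IgM, had 991 and 0 counts (at least 411-fold), and Sdc1, the surface marker CD138, 398 and 0 (at least 165-fold). Mzb1, a chaperone of B and plasma cells and the highest of the list in the maternal library, had 15341 and 3998 (4.77-fold). Xbp1 and Txndc5, which serve protein folding in many secreting cells, had 7756 and 7492 maternal and 12238 and 11821 recipient counts. The 4 members that reached 10 counts in each of the pair had a median of -0.34.

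Genes that assemble receptors in precursor cells had few or no counts, while 3 of the 5 tested members of the precursor list were called in the maternal library. Rag1, Rag2 and Igll1, which are used only while receptors are being assembled, had 0 counts in both, whereas in the 6 IUT libraries Rag1 had 13 to 2166 counts. Dntt had 254 maternal and 11 recipient counts (28.7-fold). Il7r, the receptor of a cytokine needed by precursor and resting T cells, had 2503 and 7 counts (444-fold), and Vpreb3 2026 and 0 (at least 839-fold). Ptcra, the surrogate alpha chain of precursor T cells, had 0 and 16 counts (at least 4.29-fold higher in the recipient library).

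T-cell genes were modestly higher in the maternal library. All 16 members were tested, 15 were higher in the maternal library and 3 were called, a smaller share than among all genes, with a median log2 ratio of 1.74. Cd2 had 23868 maternal and 6605 recipient counts (4.49-fold), Lck, the kinase that starts receptor signalling, 18112 and 4486 (5.02-fold), and Cd3e and Cd3d, chains of the CD3 complex, 14519 and 14142 against 4705 and 1715 (3.83-fold and 10.2-fold). Zap70, the kinase downstream of Lck, had 2135 and 0 counts (at least 884-fold). Cd8a, Tcf7 and Cd6 differed by at most 1.28-fold, with 2564 and 2487, 9675 and 10575, and 2230 and 2993 counts. Genes of regulatory T cells were near the floor in the recipient library: 6 of 7 tested were called in the maternal library, among them Ctla4 (705 and 0), Tnfrsf4 (687 and 0), Icos (600 and 0) and the lineage factor Foxp3 (271 and 0, at least 112-fold). Of the 8 members of that list, 6 had 3 counts or fewer in the recipient library. Most of the calls thus rest on genes that reached 10 counts in the maternal library alone. Tnfrsf18, the highest of the list, had 6278 and 1789 counts (4.36-fold).

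Cytotoxic granule and NK-cell genes were higher in the maternal library, with median log2 ratios of 8.90 and 7.49, which rest in part on members at or near 0 in the recipient library. Over the 6 and 4 members that reached 10 counts in each of the pair the medians were 2.50 and 1.12. In the granule list all 11 genes were higher in the maternal library and 7 were called. Gzma, a granule protease, had 19016 maternal and 23 recipient counts (1027-fold), Gzmb 7051 and 14 (626-fold) and Prf1, the pore-forming perforin, 9492 and 1 (11796-fold, exact interval 2117 to 465971). Nkg7, a granule membrane protein, had 18219 and 6551 (3.46-fold), so granule genes did not differ by a single factor. Gzmd, Gzme and Gzmf are close copies whose reads may be split between them. They had 5226, 1156 and 5108 maternal and 840, 0 and 0 recipient counts, and 0 in all 6 IUT libraries. In the NK-cell list 7 of 11 genes were called, all at 0 in the recipient library. Il2rb had 6031 maternal counts (at least 2498-fold), Klrb1c, which encodes NK1.1, 5695 (at least 2359-fold), Txk 2519 and Ncr1, the receptor NKp46, 2256. Klrc1 was higher in the recipient library, with 554 and 2211 counts (3.21-fold).

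Class II genes were higher in the maternal library, and class I genes less so. In the class II list 9 of 11 genes were higher in the maternal library and 6 were called, with a median of 3.01. Cd74, the invariant chain, had 823944 and 236051 counts (4.34-fold), H2-Ab1 335637 and 47036 (8.87-fold), H2-Aa 164587 and 38931 (5.25-fold) and H2-Eb1 8.24-fold. Ciita, the transactivator of these genes, was not higher, with 1693 and 2739 counts (1.30-fold higher in the recipient library). Class I genes were all higher in the maternal library and 2 of 12 were called, with H2-D1 at 337798 and 196086 (2.14-fold) and B2m at 143158 and 77978 (2.28-fold). Reads were aligned to the C57BL/6 reference, and reads of BALB/c class I and II alleles may be counted less fully. Of 9 conventional dendritic cell genes tested, 6 were called in the maternal library. Cd209a had 3127 and 0 counts (at least 1295-fold) and Itgax 409 and 0 (at least 169-fold), while Flt3 and Fscn1 were higher in the recipient library (1437 and 3144, 196 and 1604). The 3 members that reached 10 counts in each of the pair had a median of -0.82. Siglech, a marker of plasmacytoid dendritic cells, had 511 and 0 counts, and 4 of the 8 genes of that list were called in the maternal library.

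Granulocyte genes ran the other way. Of 9 promyelocyte granule genes, 8 were higher in the recipient library and 6 were called, against 9.62% of all genes, with a median log2 ratio of -6.57. Mpo, the myeloperoxidase of primary granules, had 8 maternal and 212050 recipient counts (21329-fold, exact interval 10824 to 49404). Elane, neutrophil elastase, had 267 and 59756 (180-fold), Prtn3 913 and 17460 (15.4-fold) and Fcnb 59 and 13563 (185-fold). Genes of later neutrophil stages differed less: all 11 were higher in the recipient library, 4 were called and the median was -2.23. S100a8 and S100a9, the most abundant cytosolic proteins of neutrophils, had 39956 and 37065 maternal and 151328 and 143467 recipient counts (3.05-fold and 3.11-fold), Ngp 5142 and 80503 (12.6-fold) and Ltf, lactoferrin, 2835 and 71888 (20.4-fold). Both libraries thus held late neutrophil RNA in quantity, whereas Mpo and Elane were low in the maternal library.

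Eosinophil and mast-cell genes, kept in a single list, ran in opposite directions, with Ccr3 as an exception. Eosinophil granule genes were higher in the recipient library: Prg2, the major basic protein, had 103 and 214316 counts (1674-fold), Epx, eosinophil peroxidase, 0 and 43113 (at least 11564-fold), Ear6 22 and 6446 (236-fold) and Ear1 0 and 6299 (at least 1690-fold). Mast-cell and basophil genes were higher in the maternal library: Tpsb2, a tryptase, had 4525 and 0 counts (at least 1874-fold), Cma1, a chymase, 3618 and 1 (4496-fold, 806 to 177641), Cpa3 3246 and 0 (at least 1345-fold) and Mcpt8, a basophil protease, 840 and 0. Ccr3, the receptor for eosinophil chemokines, was higher in the maternal library (503 and 0). The median of 7.96 over the whole list thus describes neither group, and over the 3 members that reached 10 counts in each of the pair it was -7.88. Ms4a2 and Mcpt4 had 0 counts in both.

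Macrophage genes were higher in the recipient library. All 9 tested members were higher there, 3 were called and the median was -2.27. C1qb and C1qc, chains of complement C1q, had 11269 and 9245 maternal and 66109 and 47358 recipient counts (4.72-fold and 4.12-fold). Adgre1, which encodes F4/80, had 3908 and 34457 (7.09-fold), and Timd4, a receptor of resident macrophages for dying cells, 235 and 5418 (18.6-fold). Vcam1, Clec4f, Marco, Mrc1, Spic and Cd163 had at most 1 count in both libraries. Monocyte genes were mixed, with 5 of 8 higher in the maternal library. Chil3 had 104824 and 28957 counts (4.50-fold higher in the maternal library), and F13a1 and Csf1r were 2.08-fold and 2.70-fold higher in the recipient library. Cxcl13, a chemokine of B-cell follicles, had 4985 and 55115 counts (8.90-fold), and at most 5 in any IUT library, whereas Ccl5, a chemokine of cytotoxic cells, had 12217 and 889 (17.1-fold higher in the maternal library).

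Globin and heme genes were abundant and close in both libraries, while membrane genes and erythroid factors differed more. The adult globins were among the highest genes: Hbb-bs had 1197074 maternal and 2040046 recipient counts (1.37-fold) and Hba-a1 1144189 and 1966003 (1.38-fold). All 10 genes of heme synthesis and iron uptake were higher in the recipient library by 1.14-fold to 2.76-fold, and none was called. Of 13 red-cell membrane genes 11 were higher in the recipient library, with Rhd at 9781 and 19218 counts (1.58-fold), and 2 were called there: Add2, a protein of the membrane skeleton, with 88 and 3518 (32.2-fold), and Ank1, ankyrin, with 1 and 44. Epb41 went the other way, with 1031 and 5 counts (256-fold). The erythroid factors Gata1 (1636 and 45, 45.2-fold) and Tal1 (353 and 1, 439-fold, 78.2 to 17376) were also higher in the maternal library, while Klf1, Zfpm1 and Gfi1b, factors of the same lineage, were higher in the recipient library (2.46-fold, 5.02-fold and 4.59-fold). Embryonic globins were near the floor, with Hbb-y at 46 and 0 and Hbb-bh1 at 38 and 0.

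Most tested genes of liver and epithelium were higher in the recipient library, although Alb was about equal. Of 10 tested hepatocyte genes, 6 were called in the recipient library. Afp, alpha-fetoprotein, the main plasma protein of the fetus (chromosome 5, 90638584 to 90656766), had 430 maternal and 437890 recipient counts (819-fold). Trf, transferrin, had 7662 and 194264 (20.4-fold), and Apoa1, an apolipoprotein, 231 and 50265 (175-fold). Alb, the major product of hepatocytes, had 762 and 953 counts, 1.01-fold apart, and Apob, Fgg and Cps1 had 0 in both. Apoa2 went the other way (125 and 0). Of 6 tested epithelial genes, 4 were higher in the recipient library, with 3 called there and 1 in the maternal library. Krt18 and Krt8, keratins of simple epithelia, had 189 and 253 maternal and 61017 and 54919 recipient counts (260-fold and 175-fold). Krt10, a skin keratin, had 235 and 0, and Krt5, Krt14 and Krt1 had 0 in both. Sparc, a matrix protein, had 394 and 42271 counts (86.3-fold), while Col1a1 and Col3a1 had 175 and 287 maternal and 0 recipient counts. All 8 milk protein genes had 0 counts in both libraries, and none of the 9 genes of the digestive list passed 4 counts in either.

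Proliferation genes were moderately higher in the recipient library. Of 14 DNA replication genes, 12 were higher there and none was called in that direction, with a median of -1.45. Rrm2, a subunit of ribonucleotide reductase, had 7314 and 26023 counts (2.86-fold), Rrm1 3849 and 20345 (4.25-fold) and Mcm6, a subunit of the replicative helicase, 4004 and 20234 (4.07-fold). Gins1 (133 and 0) and Pola1 (34 and 3) went the other way. Of 12 mitosis genes, 10 were higher in the recipient library and 2 were called: Top2a, a topoisomerase of dividing cells, had 531 and 11116 counts (16.8-fold), and Bub1, a kinase of the spindle checkpoint, 0 and 2068 (at least 555-fold). Aurka had 1183 and 251 (5.86-fold higher in the maternal library). Genes of stem and progenitor cells were scattered: Procr had 0 and 5531 counts and Myb 17 and 3326 (157-fold), whereas Kit had 171 and 1 and Cd34 117 and 13, and Meis1, Mecom and Hoxa9 had 0 in both. Igf2bp3, an RNA-binding protein of fetal blood cells, had 0 and 5151 counts (at least 1382-fold), and its relative Igf2bp2 99 and 0.

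Mitochondrially encoded genes were higher in the recipient library throughout. All 13 were higher there and 11 were called, with a median log2 ratio of -3.93. mt-Atp6, a subunit of ATP synthase, had 24482 and 325434 counts (10.7-fold), mt-Cytb 10105 and 227152 (18.1-fold), mt-Nd1, a subunit of complex I, 7484 and 184015 (19.8-fold) and mt-Co1, of cytochrome oxidase, 16862 and 177348 (8.46-fold). Their summed level was 2435 CPM in the maternal and 27782 CPM in the recipient library. In the 3 IUT pairs the order was the opposite, with 10128 to 14298 CPM in the maternal and 658 to 1709 CPM in the recipient libraries. Sdha, a nuclear-encoded subunit of complex II, was 2.07-fold higher in the maternal library (13732 and 8239).

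Stress and interferon genes did not separate the libraries as sets. Of 12 immediate early genes, which are induced by handling, 8 were higher in the maternal library and 2 were called. Fos had 88338 and 145986 counts, Junb 114812 and 68957, Dusp1 59256 and 78833 and Zfp36 53142 and 54824, at most 2.07-fold apart. Of 11 interferon-stimulated genes 7 were higher in the recipient library, and 3 were called in the maternal and 2 in the recipient library. Rsad2 had 2479 and 6310 counts (2.05-fold). Ifit1 (0 and 1880) and Oasl2 (113 and 4838, 34.5-fold) were called in the recipient library, and Usp18 (2194 and 7, 390-fold), Ifit3 (129 and 6, 26.7-fold) and Ifi44 (78 and 0, at least 32.3-fold) in the maternal library.

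Platelet, chemokine and tissue genes were mixed. Of 7 tested megakaryocyte and platelet genes 4 were called in the maternal library, while Pf4, a platelet chemokine, had 3394 and 16486 counts (3.91-fold higher in the recipient library) and Itga2b, an integrin of platelets, 143 and 1469 (8.27-fold). Of 11 chemokine and chemokine receptor genes 5 were called in the maternal library. Ccl4 had 6957 and 672 counts (12.9-fold) and Cxcr3, a receptor of effector T and NK cells, 1484 and 0 (at least 615-fold). Cxcr5, the receptor for Cxcl13, had 6347 and 7224 (1.09-fold). Of 6 imprinted genes of fetal growth, Igf2 (69 and 728) and Peg3 (0 and 147) were called in the recipient library and Dlk1 (210 and 0) and Grb10 (30 and 2) in the maternal library. Bone, endothelial, muscle and neural lists had 4, 3, 6 and 2 tested members. Their summed levels were 699, 46.7, 108 and 88.2 CPM in the maternal and 845, 58.6, 226 and 34.7 CPM in the recipient library, and of their defining genes Bglap, Kdr, Myh3 and Sox10 had 0 counts in both. Alpl, an alkaline phosphatase of bone and of other tissues, had 0 and 4623 counts (at least 1240-fold), and Ckm, creatine kinase of muscle, 275 and 0 (at least 114-fold).

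**Figure D5:**
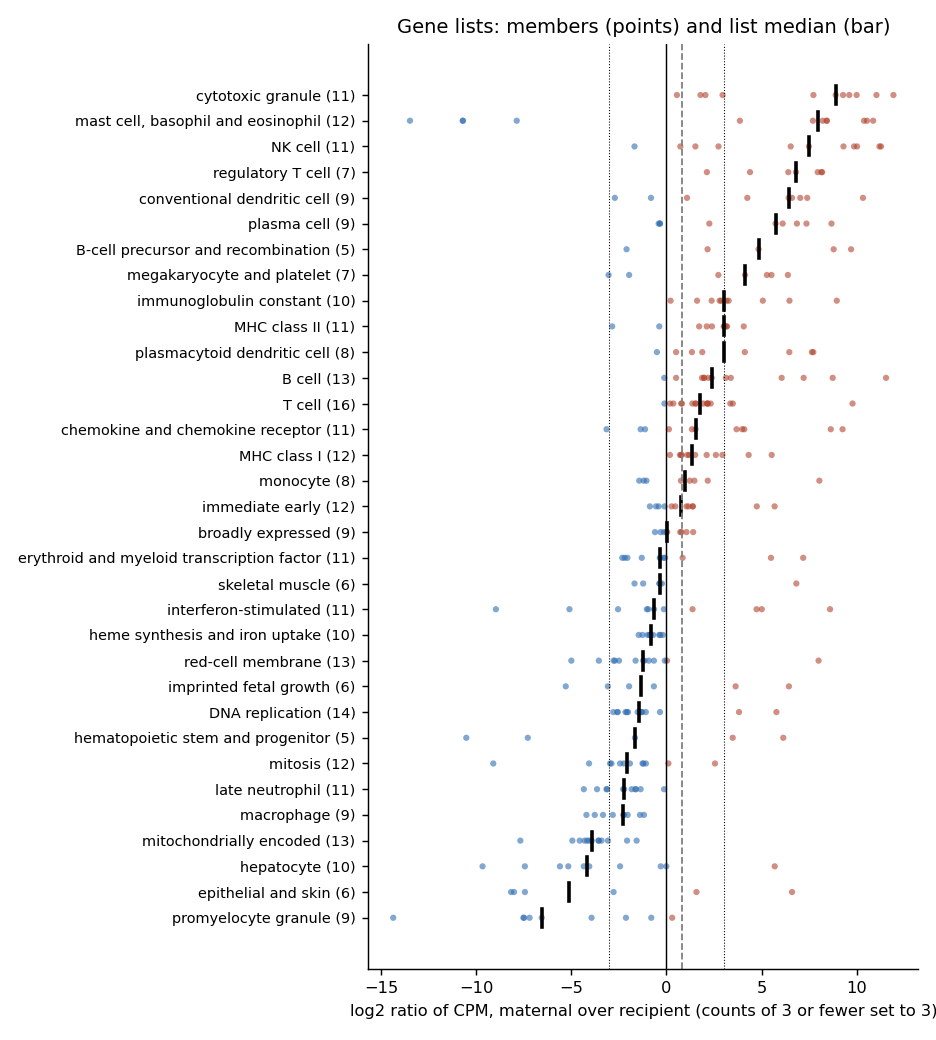
Log2 ratio of CPM, maternal over recipient (x axis), of each tested member (points) of the gene lists with at least 5 tested members (rows, number tested in brackets); the black bar is the list median, dotted lines mark 8-fold and the dashed line the median of all genes tested, 0.79. List medians run from -6.57 for promyelocyte granule genes to 8.90 for cytotoxic granule genes.

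Outside the lists, the genes with the largest ratios among those with at least 100 CPM were listed. In the maternal library they were Cd38, S1pr1, Slc28a2, Cd83, Bckdha, Tmem109, Id3, Mef2c, Tpsab1, Mri1, Tgfbr2 and Isyna1. Cd38, an ectoenzyme of lymphocytes, had 9685 and 1 counts, S1pr1, the receptor that lets lymphocytes leave lymphoid organs, 9642 and 2, and Cd83, a marker of activated B and dendritic cells, 5496 and 0 (at least 2277-fold). Id3 and Mef2c, regulators of lymphocyte development, had 4795 and 4275 maternal counts and 0 and 2 recipient counts. Tpsab1, a mast-cell tryptase, had 4252 and 0.

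In the recipient library the 12 were Apoa4, Ly6m, Gkn2, Slco2a1, Prg3, Ccn1, Atg2b, Slc22a6, Gm10680, Tinagl1, Itgb2l and Gkn1. Apoa4, an apolipoprotein of the intestine, had 0 and 37084 counts (at least 9947-fold). Gkn2 and Gkn1, secreted proteins of the stomach, had 0 maternal and 20184 and 6812 recipient counts. Prg3, a relative of the eosinophil major basic protein, had 0 and 16404, Slco2a1, a prostaglandin transporter, 0 and 17595, and Slc22a6, an organic anion transporter of the kidney, 0 and 7661. Other intestinal genes were near 0 in the recipient library, with Fabp2 at 4 counts, Alpi at 1 and Lct at 0.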

How the data were processed

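RNA was sequenced in 8 pooled libraries, of which the maternal and recipient uninjected libraries are compared here. The authors deposited estimated counts per gene, not normalized and fractional as salmon writes them, from the nf-core pipeline on GRCm39 with GENCODE annotation (the study's methods name featureCounts). The authors also deposited MiXCR tables with 2 values a clonotype, its reads (clone count, not normalized) and the share of the table's reads that it holds (clone fraction); the fraction was not needed, since shares were computed from the counts. All 8 columns were used and 0 left out. Estimated counts were rounded. CPM is the count divided by the library total times its TMM factor over all 8 libraries (edgeR 4.0.16, R 4.3.3), which were 1.01 for both libraries. Of the gene identifiers, 97.99% matched the GENCODE annotation used for names and positions.

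Genes with at least 10 counts in 1 of the 2 libraries were compared, counts of 3 or fewer were set to 3 and a ratio of 8 was called. A fold against 0 counts is a bound at 3 counts of that library, and with 1 to 3 counts it is given with its exact interval. Intervals are at 95% (Wilson, exact Poisson or exact binomial). The text names up to 4 members of each of 44 lists with the highest CPM, members that go against their list, the 12 largest ratios a direction outside the lists at 100 CPM or more, and the 3 largest clonotypes of each library, of each chain described and of those shared. Some genes that this rule names are not reported here. Other genes and clonotypes, the H2-Ea ratio and the V mismatches were chosen after their values were seen. Members and lists were chosen with earlier results of these data known. Bases between V and J were read from the MiXCR reference points, and IGH, TRB and TRD clonotypes without a D segment were left out of them. The calculations were tested on simulated data. Alternatives were other scalings (DESeq2 1.42.0), filters, priors, folds, clone count minimums and matches. Python 3.11.15, pandas 2.3.3 and scipy 1.17.1 were used.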

Additional observations from a re-analysis of the deposited data

How the results depend on the processing

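Of 73 alternative values for counts of genes, lists, clonotypes and their medians and shares, 65 stayed close to the value given (counts and Hill numbers within 1.5 times, shares and medians within their interval) and 8 did not. With at least 10 counts required in both libraries, a filter added after values were seen, 572 genes were higher in the maternal and 640 in the recipient library, and 12 of 31 lists leaned to the maternal library instead of 20 of 38; this filter removes the genes near 0 in 1 library. A fold of 4 gave 2124 genes higher in the recipient library. The Hill number of order 2 was 305 and 37.6, and by reads B-cell chains were 93.3 and 85.0%. List medians changed sign in 5 cases: broadly expressed genes to -0.00033 with DESeq2 size factors, stem and progenitor genes to 0.034 with every gene counted, and plasma cell, conventional dendritic cell and mast cell, basophil and eosinophil genes to -0.34, -0.82 and -7.88 with 10 counts in both libraries. Under that filter the cytotoxic granule, NK-cell and plasmacytoid dendritic cell medians fell to 2.50, 1.12 and 0.92. With edgeR's default prior count 6 of 38 list medians left their interval, since such folds of genes at 0 depend on the prior. The NK-cell and regulatory T-cell medians were then 11.93 and 11.25, and the plasma cell and conventional dendritic cell medians 10.18 and 8.69. Those of mast cell, basophil and eosinophil genes and of megakaryocyte and platelet genes were 12.04 and 7.18. No paired analysis was possible because each origin has 1 library, and for the same reason no library could be left out.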
